A study of Mus musculus with 21 samples.

Results

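Adenylyl cyclases make cyclic AMP (cAMP) from ATP, and phosphodiesterases break down cAMP and cyclic GMP (cGMP). Their genes were followed in mouse neocortex with and without neuronal expression of cytoplasmic TDP-43. The members were all genes of the deposited count table with an Adcy symbol followed by a number, or a Pde symbol followed by a number and at most 1 letter. These were 35 of the 48474 rows of the table, namely 10 adenylyl cyclases and 25 phosphodiesterases. The further copies of a symbol that the table lists as Pde12-2 and Pde4c-2 were not counted as members.

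The data were bulk mRNA sequencing libraries of 11 wild-type (WT) and 10 rNLS8 mice (labelled TG), 1 library per mouse. According to the methods, rNLS8 mice carry NEFH-tTA and tetO-hTDP-43ΔNLS, both backcrossed to C57BL/6J. The neurofilament heavy chain promoter drives an activator that doxycycline represses. The activator switches on a human TDP-43 without its nuclear localization signal, mainly in neurons, with rare oligodendrocytes. Littermates that carried a single transgene were the controls according to the series text, and they are called WT here as in the labels. Every mouse, controls included, had been injected into a brain ventricle at 17 to 19 weeks of age with 10 µL that held 350 µg of an antisense oligonucleotide labelled as non-targeting. Doxycycline at 200 mg/kg of chow was withdrawn 2 weeks after the injection, and tissue was taken after 3 weeks of transgene expression. The labels name neocortex, the methods brain cortex, and a legend of the study names hippocampus for such a set of mice. The labels assign 4 WT and 3 rNLS8 mice to batch A and 7 WT and 7 rNLS8 mice to batch B, which the series text calls independent cohorts. Sex is not given for single mice, and the rNLS8 mice of the study came from a few litters.

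Both cyclic nucleotides are intracellular messengers. In neurons cAMP acts through protein kinase A, Epac proteins and ion channels, and shapes excitability, synaptic plasticity and transcription through CREB, while nitric oxide acts largely through cGMP. The membrane-bound cyclases differ in what stimulates them, such as calcium with calmodulin or G protein βγ subunits, and the phosphodiesterase families differ in substrate and regulation. The cortex and the adjoining striatum use different sets of these enzymes. Adcy5, Pde1b, Pde7b and Pde10a are known for high expression in striatal projection neurons.

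Total counts were between 20700912 and 22263809 per mouse, and 3 counts equal 0.131 to 0.151 CPM, which are counts scaled to an equal effective library size (library total times scaling factor) in each mouse. All 6 excitatory neuron markers, with the cortical gene Tbr1 among them, were detected in every mouse at a summed level of 3606 to 7434 CPM. The hippocampus markers, a list of other genes, summed to 24.5 to 81.3 CPM. The rNLS8 mouse 9 of batch A stood apart from the other libraries. Over 16149 genes, its deviation from its group correlated with exonic length by a Spearman rho of -0.479, against -0.181 to 0.329 in the other 20 mice, so counts of members are also given without it. The summed level of 5 neuronal markers did not overlap between the genotypes, with 4622 to 5971 CPM in WT and 3178 to 4074 CPM in rNLS8 mice. Of these, Snap25, Syt1 and Map2 were lower, and Rbfox3 and Tubb3 did not pass the test. All 6 inhibitory neuron markers and all 5 astrocyte markers were lower, and 4 of 6 microglia markers were higher and P2ry12 was lower. All 8 striatum markers were detected in every mouse, and their summed level ranged from 215 to 1181 CPM in WT and from 190 to 932 CPM in rNLS8 mice. In bulk tissue, fewer cells of a type and less RNA per cell cannot be told apart, and the part of these marker shifts in the results on the members was not tested, except where a covariate is named.

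Of the 35 members, 29 passed the filter on low counts, which were 9 of 10 cyclases and 20 of 25 phosphodiesterases. In rNLS8 mice Adcy1, Adcy2 and Adcy8 and the phosphodiesterase genes Pde7b, Pde8b, Pde11a, Pde1a, Pde5a and Pde9a fell, while Adcy7, Adcy3, Pde12 and Pde4b rose. The other 16 tested members did not pass the test, which was edgeR's quasi-likelihood test adjusted for batch, with the Benjamini-Hochberg method over 18248 genes and a threshold of 0.05 on the adjusted p. Fold changes are given on the log2 scale with their standard error (SE), and positive values are higher in rNLS8 mice. Normalized counts are counts scaled to a common effective library size, and means are given ± SD over 11 WT and 10 rNLS8 mice. Members were called as often as genes in general, with 13 of 29 or 44.8% of members against 44.7% of all genes tested. They were higher in 4 of 29 or 13.8%, against 23.0% of all genes, and lower in 9 of 29 or 31.0%, against 21.7% of all genes. This split depended on the scaling. With library size in place of TMM, 6 of 29 members were higher, against 32.0% of all genes, and 6 of 29 were lower, against 15.1% of all genes. The median log2 fold change was -0.11 over the tested members, -0.15 over the cyclases and -0.11 over the phosphodiesterases, and the median over all genes tested was -6.7e-04. Pde8b was the only member of the 29 whose normalized counts did not overlap between the genotypes, and over all genes 7.65% did not overlap.

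**Figure D1:**
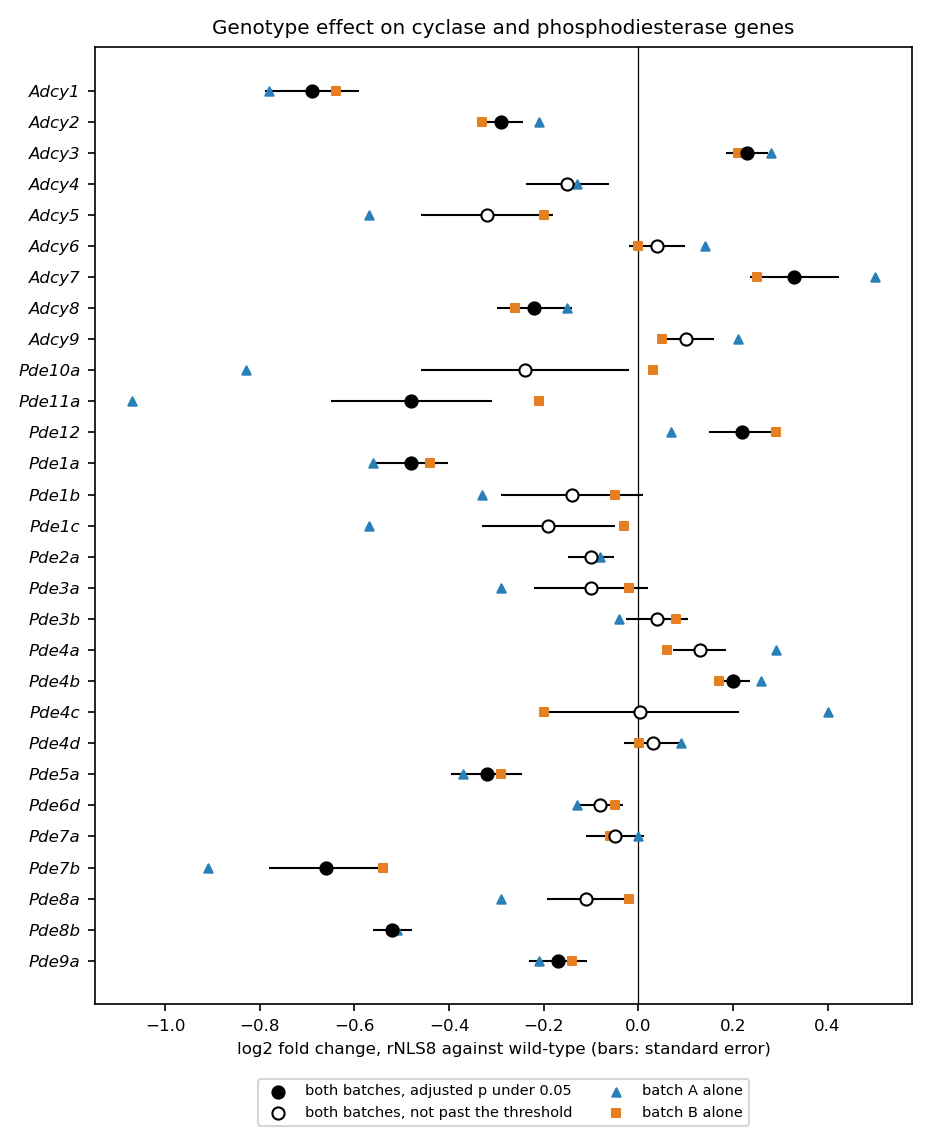
Log2 fold change of the 29 tested members in rNLS8 against WT mice over both batches (circles, filled where the adjusted p was under 0.05, with bars for the standard error), in batch A alone (triangles) and in batch B alone (squares). Of the 29 members, 9 lie below and 4 lie above zero with a filled circle, and 4 of the open circles, Pde10a, Pde3b, Pde4c and Pde7a, have batch values on both sides of zero.

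The direction was the same in batches A and B for 13 of 13 called members and for 25 of 29 tested members. The called members were chosen on both batches together, so their agreement is no independent replication. The share over all genes was not computed. In batch A alone, with 4 against 3 mice, Adcy1, Pde11a, Pde1a, Pde7b and Pde8b were lower and 0 members were higher by edgeR, where 11.8% of all genes were called. At an unadjusted p under 0.05, 9 of 29 members were lower in that batch, against 12.3% of all genes, and 3 of 29 were higher, against 15.5% of all genes. Batch B alone gave 4 members higher and 6 lower, where 39.1% of all genes were called. Without rNLS8 mouse 9, 4 members were higher and 8 lower, where 45.6% of all genes were called, and Pde11a was the member lost (adjusted p = 0.0543 by edgeR). The genotype effect differed between the batches at an unadjusted p under 0.05 for 1 of 29 members, Pde11a, against 5.64% of all genes. After adjustment no member and 0 of the 18248 genes differed between the batches by edgeR's interaction test.

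Promoter sequences are shown for the 3 members with the largest fold change in each direction, since these members carry the largest differences. They are RefSeq sequences of GRCm38.p6 on the coding strand, from 250 bases before to 50 bases after an annotated transcript start. They were searched on both strands for the GC box GGGCGG and for TGACG, the short form of the cAMP response element (CRE) that also lies within the full element TGACGTCA. Capitals mark these matches. Where a gene had several promoter entries, the one with the most TGACG, and then with the most GC boxes, is printed. The sequence of Adcy1 lies at chr11:7063183-7063482 on the plus strand, that of Pde7b at chr10:20548279-20548578 on the minus strand and that of Pde8b at chr13:95223001-95223300 on the minus strand.
Adcy1: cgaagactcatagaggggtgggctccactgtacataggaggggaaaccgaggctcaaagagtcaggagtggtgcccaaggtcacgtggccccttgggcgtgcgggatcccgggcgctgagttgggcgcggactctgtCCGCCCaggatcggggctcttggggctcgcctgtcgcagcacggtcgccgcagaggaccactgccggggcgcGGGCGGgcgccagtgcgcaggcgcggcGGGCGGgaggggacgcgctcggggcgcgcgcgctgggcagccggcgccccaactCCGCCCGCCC
Pde7b: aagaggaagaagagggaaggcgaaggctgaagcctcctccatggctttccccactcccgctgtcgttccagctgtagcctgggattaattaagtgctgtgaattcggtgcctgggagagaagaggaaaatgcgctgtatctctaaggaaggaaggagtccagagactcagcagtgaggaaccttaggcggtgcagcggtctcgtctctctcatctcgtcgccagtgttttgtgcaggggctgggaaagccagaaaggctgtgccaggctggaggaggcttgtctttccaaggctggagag
Pde8b: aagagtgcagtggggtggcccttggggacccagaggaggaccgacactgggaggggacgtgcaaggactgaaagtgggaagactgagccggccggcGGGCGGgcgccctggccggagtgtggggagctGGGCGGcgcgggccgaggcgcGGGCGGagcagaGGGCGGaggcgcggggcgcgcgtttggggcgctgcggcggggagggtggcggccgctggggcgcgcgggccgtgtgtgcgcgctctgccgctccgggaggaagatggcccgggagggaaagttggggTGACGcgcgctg
The members that rose are Adcy7 at chr8:88282742-88283041 and Adcy3 at chr12:4133147-4133446, both on the plus strand, and Pde12 at chr14:26669797-26670096 on the minus strand.
Adcy7: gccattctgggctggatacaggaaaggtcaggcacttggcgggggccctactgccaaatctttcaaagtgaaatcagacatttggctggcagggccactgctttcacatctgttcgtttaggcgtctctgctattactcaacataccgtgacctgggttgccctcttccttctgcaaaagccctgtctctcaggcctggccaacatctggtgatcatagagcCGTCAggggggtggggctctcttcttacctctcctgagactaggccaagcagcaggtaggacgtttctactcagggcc
Adcy3: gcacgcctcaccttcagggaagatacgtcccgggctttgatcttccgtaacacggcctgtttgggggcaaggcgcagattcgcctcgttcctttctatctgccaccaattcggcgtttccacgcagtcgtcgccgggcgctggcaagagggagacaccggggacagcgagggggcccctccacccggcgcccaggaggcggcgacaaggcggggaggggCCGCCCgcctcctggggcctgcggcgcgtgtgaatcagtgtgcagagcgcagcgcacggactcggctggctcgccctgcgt
Pde12: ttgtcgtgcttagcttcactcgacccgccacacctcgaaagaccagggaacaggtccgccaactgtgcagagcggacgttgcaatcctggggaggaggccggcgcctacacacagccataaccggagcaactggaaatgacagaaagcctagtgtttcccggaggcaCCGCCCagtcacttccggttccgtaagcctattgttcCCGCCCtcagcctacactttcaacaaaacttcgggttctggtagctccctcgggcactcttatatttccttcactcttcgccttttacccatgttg
The printed Adcy1 promoter held 5 GC boxes, overlapping ones included, and was 74% G and C. That of Pde8b held 4 GC boxes and 1 TGACG and was 76.3% G and C, whereas that of Pde7b held neither motif at 55.7% G and C. Of the risen members, the printed entry of Adcy7 held 1 TGACG and 0 GC boxes, while another of its 3 entries held 1 GC box. Adcy3 held 1 GC box and Pde12 held 2. Promoters in the table were matched for 23 of the 29 tested members, with 47 entries. TGACG was found in 8 of the 47 and in 20.8% of all 32851 promoters of this length, the full element TGACGTCA in 0 of the 47 and in 1.79% of all, and the GC box in 38.3% of the 47 and in 35.7% of all. The members with TGACG were Adcy7, Adcy9, Pde1a, Pde2a, Pde4a, Pde4b, Pde8a and Pde8b, which include genes that rose, genes that fell and genes that did not pass the test. These matches describe letters in a window and no binding was measured.

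Adcy1, the calcium- and calmodulin-stimulated cyclase of cortical and hippocampal neurons, fell by 0.69 on the log2 scale, with Pde7b next at -0.66. The rank of these members turned without rNLS8 mouse 9, with -0.62 for Adcy1 and -0.68 for Pde7b, and in batch A, with -0.78 for Adcy1, -0.91 for Pde7b and -1.07 for Pde11a. Adcy1 lies on chromosome 11 from 7063433 to 7178506. It had a lowest, median and highest value of 17100, 21103 and 30151 normalized counts in WT mice and of 9240, 14383 and 17702 in rNLS8 mice. All but 1 of the rNLS8 mice were below every WT mouse, and the exception was still below the WT median. The means were 23031 ± 4453 (SD, n = 11) and 14258 ± 2155 (SD, n = 10), and the log2 fold change was -0.69 (SE 0.10, adjusted p = 8.25e-06 by edgeR). It was -0.78 in batch A (adjusted p = 0.0304) and -0.64 in batch B (adjusted p = 1.08e-04), both by edgeR, and -0.62 without rNLS8 mouse 9, which had the lowest value.

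Of the other calcium-stimulated cyclases, Adcy8 fell and Adcy3 rose. Adcy8, which shares with Adcy1 the stimulation by calcium and calmodulin, had 513, 596 and 756 normalized counts in the lowest, median and highest WT mouse and 447, 532 and 656 in rNLS8 mice. The groups overlapped widely, with 5 of 10 rNLS8 mice below every WT mouse. Its log2 fold change of -0.22 (SE 0.079, adjusted p = 0.0244 by edgeR) was near the threshold. It did not pass in batch A alone (adjusted p = 0.448) or in batch B alone (adjusted p = 0.0559), nor without WT mouse 1 (adjusted p = 0.0506), all by edgeR. Adcy3, the cyclase of olfactory and neuronal cilia, had 1181, 1314 and 1455 normalized counts in the lowest, median and highest WT mouse and 1296, 1567 and 1724 in rNLS8 mice. Of the rNLS8 mice, 9 of 10 were above every WT mouse, and mouse 8 was the exception. The log2 fold change was 0.23 (SE 0.045, adjusted p = 1.74e-04 by edgeR), with 0.28 in batch A and 0.21 in batch B. Cenpo overlaps 22.1% of the exonic bases of Adcy3 on the opposite strand and had a log2 fold change of 0.35. Cenpo held 1761 counts in all and Adcy3 30280. Whether the counting used strand is not given in the sources used here, and the part of Cenpo in the Adcy3 result was not tested.

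Among the cyclases stimulated by G protein βγ subunits, Adcy2 fell and Adcy7 rose. Adcy2 lies on chromosome 13 from 68620043 to 68999600. It had 2881, 3097 and 3512 normalized counts in the lowest, median and highest WT mouse and 2259, 2551 and 2901 in rNLS8 mice. All but 1 of the rNLS8 mice were below every WT mouse, so the groups barely overlapped. This gave a log2 fold change of -0.29 (SE 0.046, adjusted p = 1.15e-05 by edgeR), with -0.21 in batch A, where it was not past the threshold, and -0.33 in batch B. Adcy7, which is known for its expression in immune cells, was a low gene with 99.0, 110 and 132 normalized counts in WT mice and 102, 133 and 220 in rNLS8 mice. Here 5 of 10 rNLS8 mice were above every WT mouse and 1, mouse 8, was far above all others. The log2 fold change was 0.33 (SE 0.095, adjusted p = 0.00690 by edgeR), and it was 0.23 without mouse 8 (adjusted p = 0.0187). Mouse 8 also had the highest summed level of microglia markers, at 448 CPM against 329 to 412 CPM in the other rNLS8 mice and 314 to 357 CPM in WT mice. The part of this in the Adcy7 result was not tested. Adcy4 did not pass the test at 78.3 ± 9.89 normalized counts in WT and 70.3 ± 9.19 in rNLS8 mice (SD; log2 fold change -0.15).

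The calcium-inhibited cyclases did not pass the test. Adcy5, the main cyclase of the striatum, had 4283, 6067 and 10855 normalized counts in the lowest, median and highest WT mouse and 3886, 5445 and 8677 in rNLS8 mice. The groups overlapped over nearly their whole ranges. Its log2 fold change was -0.32 (SE 0.14, adjusted p = 0.0654 by edgeR) and passed the threshold in 3 of the 21 fits that left out 1 mouse. Adcy6 had 962 ± 101 normalized counts in WT and 987 ± 112 in rNLS8 mice (SD; log2 fold change 0.04). Adcy9, a widely expressed cyclase, had 1822, 2275 and 2434 normalized counts in the lowest, median and highest WT mouse. In rNLS8 mice it had 2082, 2326 and 2923. Its means were 2202 ± 214 in WT and 2372 ± 237 in rNLS8 mice (SD; log2 fold change 0.10, SE 0.060, adjusted p = 0.164 by edgeR). The soluble cyclase Adcy10, the bicarbonate-sensitive form, did not pass the filter, with 71 counts over all mice, of which 52 were in WT and 19 in rNLS8 mice.

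**Figure D2:**
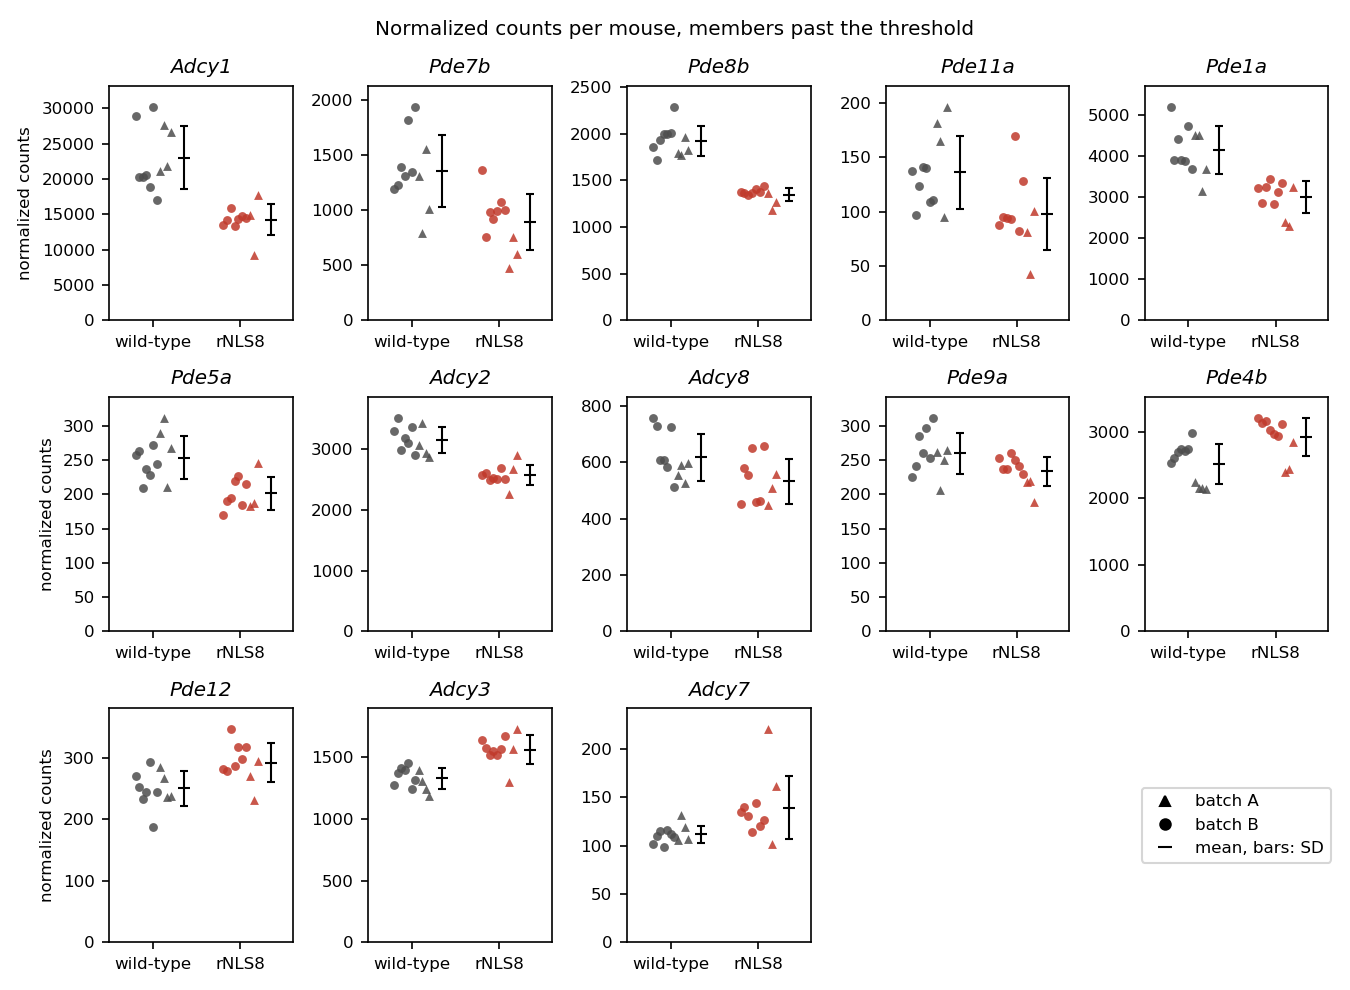
Normalized counts of the 13 called members in each WT (grey) and rNLS8 (red) mouse, as triangles for batch A and circles for batch B, with the mean and SD of each genotype to the right of its points. Axes start at 0. For Pde8b the highest rNLS8 mouse, at 1434, lies below the lowest WT mouse, at 1713, whereas the groups overlap in the other 12 panels.

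Of the 8 cAMP-specific phosphodiesterases, Pde8b and Pde7b fell and Pde4b rose. Pde8b, a high-affinity enzyme insensitive to the common inhibitor IBMX, lies on chromosome 13 from 95024105 to 95250401. It had 1713, 1932 and 2281 normalized counts in the lowest, median and highest WT mouse and 1187, 1361 and 1434 in rNLS8 mice. Every rNLS8 mouse was below every WT mouse. The difference on the log2 scale was -0.52 (SE 0.041, adjusted p = 3.91e-10 by edgeR), a decrease in level by 30.2%, with -0.51 in batch A and -0.52 in batch B. It stayed between -0.54 and -0.49 when any 1 mouse was left out. Its paralog Pde8a did not pass the test at 439 ± 54.5 normalized counts in WT and 412 ± 74.0 in rNLS8 mice (SD; log2 fold change -0.11). The difference between the paralogs was not tested.

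Pde7b, on chromosome 10 from 20397052 to 20725078, had 796, 1313 and 1934 normalized counts in the lowest, median and highest WT mouse and 477, 953 and 1363 in rNLS8 mice. The WT range was wide, and 4 of 10 rNLS8 mice were below it. The log2 fold change was -0.66 (SE 0.12, adjusted p = 1.28e-04 by edgeR), with -0.91 in batch A and -0.54 in batch B. Pde7a, its paralog known from T cells, had 387 ± 31.0 in WT and 377 ± 42.4 in rNLS8 mice (SD; log2 fold change -0.05).

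The PDE4 enzymes are the targets of rolipram and bind to anchoring proteins. Pde4b, on chromosome 4 from 102087332 to 102607275, had 2137, 2610 and 2989 normalized counts in the lowest, median and highest WT mouse and 2398, 3001 and 3203 in rNLS8 mice. Much of this overlap lay between the batches. In batch A the 4 WT mice were at 2137 to 2242 and the 3 rNLS8 mice at 2398 to 2843, and in batch B the 7 WT mice were at 2524 to 2989 and the 7 rNLS8 mice at 2932 to 3203. The log2 fold change with batch as covariate was 0.20 (SE 0.037, adjusted p = 1.04e-04 by edgeR). Pde4a had 1854, 2084 and 2312 normalized counts in the lowest, median and highest WT mouse. In rNLS8 mice it had 1981, 2251 and 2759. Its means were 2087 ± 149 in WT and 2284 ± 261 in rNLS8 mice (SD), and 5 of 10 rNLS8 mice were above every WT mouse. Its log2 fold change of 0.13 did not pass the threshold (SE 0.056, adjusted p = 0.0575 by edgeR), and passed it in 7 of the 21 fits that left out 1 mouse. Pde4d had 1430 ± 158 in WT and 1468 ± 171 in rNLS8 mice (SD; log2 fold change 0.03). Pde4c was the lowest tested member, with 30.0 ± 8.03 in WT and 30.1 ± 11.8 in rNLS8 mice (SD; SE of the log2 fold change 0.21).

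Among the calcium- and calmodulin-dependent phosphodiesterases, which hydrolyze both cyclic nucleotides, Pde1a fell. It lies on chromosome 2 from 79834453 to 80196522, and had 3141, 3905 and 5175 normalized counts in the lowest, median and highest WT mouse and 2298, 3176 and 3425 in rNLS8 mice. Of the rNLS8 mice, 5 of 10 were below every WT mouse. This gave a log2 fold change of -0.48 (SE 0.077, adjusted p = 1.70e-05 by edgeR), with -0.56 in batch A and -0.44 in batch B. Pde1b had 2877, 4907 and 9028 normalized counts in WT mice and 2795, 5078 and 7577 in rNLS8 mice. The groups overlapped throughout and the log2 fold change was -0.14 (SE 0.15, adjusted p = 0.472 by edgeR). Pde1c had 234 ± 54.2 in WT and 214 ± 72.8 in rNLS8 mice (SD; log2 fold change -0.19).

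Of the other enzymes that act on both nucleotides, only Pde11a was called. It lies on chromosome 2 from 75985808 to 76339145 and is known in brain from ventral hippocampus. It had 95.5, 137 and 196 normalized counts in the lowest, median and highest WT mouse and 42.4, 93.6 and 170 in rNLS8 mice. Of the rNLS8 mice, 7 of 10 were below every WT mouse, and mouse 5, at 170, lay within the WT range. In its own batch B, mouse 5 was above all 7 WT mice, which were at 97.4 to 141. The log2 fold change was -0.48 (SE 0.17, adjusted p = 0.0265 by edgeR). It was -1.07 in batch A (adjusted p = 0.0430) and -0.21 in batch B (adjusted p = 0.299), both by edgeR. The difference between the batches, B minus A, was 0.89 (unadjusted p = 0.0121, adjusted p = 0.853 by edgeR). The call was lost without rNLS8 mouse 8 (adjusted p = 0.0563) and without rNLS8 mouse 9 (adjusted p = 0.0543, log2 fold change -0.36). Pde10a, the striatal enzyme of this group, had 1300, 3117 and 7266 normalized counts in WT mice and 1545, 3623 and 7180 in rNLS8 mice. Its WT mice spanned a 5.59-fold range, and its log2 fold change was -0.24 (SE 0.22, adjusted p = 0.405 by edgeR).

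The cGMP-regulated enzymes Pde2a, Pde3a and Pde3b did not pass the test. Pde2a, which cGMP stimulates, had 9278 ± 807 normalized counts in WT and 8684 ± 420 in rNLS8 mice (SD; log2 fold change -0.10, adjusted p = 0.102 by edgeR). The annotated gene Gm45837 shares 64.3% of its exonic bases on the same strand and has no row of that symbol in the count table. How reads of the shared bases were counted is not given in the sources used here. Pde3a and Pde3b, which cGMP inhibits, had log2 fold changes of -0.10 and 0.04.

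Both cGMP-specific enzymes fell, where 21.7% of all genes were lower. Pde5a, the target of sildenafil, lies on chromosome 3 from 122729158 to 122859374. It had 209, 258 and 311 normalized counts in the lowest, median and highest WT mouse and 170, 193 and 246 in rNLS8 mice. Of the rNLS8 mice, 6 of 10 were below every WT mouse. The difference on the log2 scale was -0.32 (SE 0.075, adjusted p = 0.00117 by edgeR), with -0.37 in batch A and -0.29 in batch B. Pde9a, a high-affinity cGMP enzyme of neurons, had 206, 260 and 311 normalized counts in WT mice and 189, 237 and 261 in rNLS8 mice. Only 1 of 10 rNLS8 mice was below every WT mouse. Its log2 fold change of -0.17 (SE 0.061, adjusted p = 0.0299 by edgeR) passed the threshold in 4 of 10 alternative analyses of both batches and in 17 of the 21 fits that left out 1 mouse.

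Pde12, which removes poly(A) tails of mitochondrial RNA and degrades oligoadenylates rather than cyclic nucleotides in cells, rose. It had 187, 245 and 293 normalized counts in the lowest, median and highest WT mouse and 232, 290 and 346 in rNLS8 mice, and 5 of 10 rNLS8 mice were above every WT mouse. The log2 fold change was 0.22 (SE 0.071, adjusted p = 0.0151 by edgeR), with 0.07 in batch A and 0.29 in batch B. The further row Pde12-2 held 102% of the counts of the first row and gave 0.21 (adjusted p = 0.0161 by edgeR), and what separates the rows is not stated in the table. Arf4 overlaps 6.82% of the exonic bases of Pde12 on the opposite strand, held 36959 counts in all, with 5696 for Pde12, and had a log2 fold change of 0.02. The part of Arf4 in the Pde12 result was not tested.

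The photoreceptor enzymes of the retina had few counts, except for Pde6d. Pde6a had 48 counts over all 21 mice, Pde6b 58, Pde6c 53, Pde6g 47 and Pde6h 29, and 7 mice had no count of Pde6h. None of these passed the filter. Pde6d, which acts as a carrier of prenylated proteins in many tissues, was well expressed at 650 ± 26.9 normalized counts in WT and 615 ± 54.9 in rNLS8 mice (SD). Its log2 fold change was -0.08 (SE 0.048, adjusted p = 0.189 by edgeR).

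Levels were compared between members per length, as CPM per kilobase of annotated exon. In WT mice Adcy1 had the highest mean level at 86.1 ± 16.7 (SD, n = 11), followed by Pde2a at 70.7, Pde1b at 46.0, Adcy5 at 44.0, Adcy2 at 35.1 and Pde1a at 32.2. The ranges of Adcy1, Pde2a, Pde1b and Adcy5 overlapped one another between WT mice. Within the same mouse, Adcy1 was above Pde2a in 9 of 11 WT mice, Pde2a above Pde1b in 10 of 11, Pde1b above Adcy5 in 7 of 11, Adcy5 above Adcy2 in 8 of 11 and Adcy2 above Pde1a in 8 of 11, so no step of this order held in every WT mouse. Pde8b was at 15.3, Pde10a at 13.9, Pde4a at 12.8, Pde4b at 11.2, Adcy3 at 9.95 and Pde4c, the lowest of the 29, at 0.251. In rNLS8 mice the mean was 66.1 for Pde2a, 53.3 for Adcy1 and 43.2 for Pde1b. Pde2a was above Adcy1 in 9 of 10 rNLS8 mice and above Pde1b in 10 of 10, and Adcy1 was above Pde1b in 8 of 10. The summed level of all cyclases did not overlap between the genotypes, with 195 to 233 in WT and 136 to 179 in rNLS8 mice (medians 206 and 165). Adcy1 made up 41.5% ± 6.34 of this sum in WT and 32.7% ± 3.83 in rNLS8 mice (SD), and 33.5% without rNLS8 mouse 9. The summed level of the phosphodiesterases overlapped, with 204 to 300 in WT and 180 to 269 in rNLS8 mice.

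**Figure D3:**
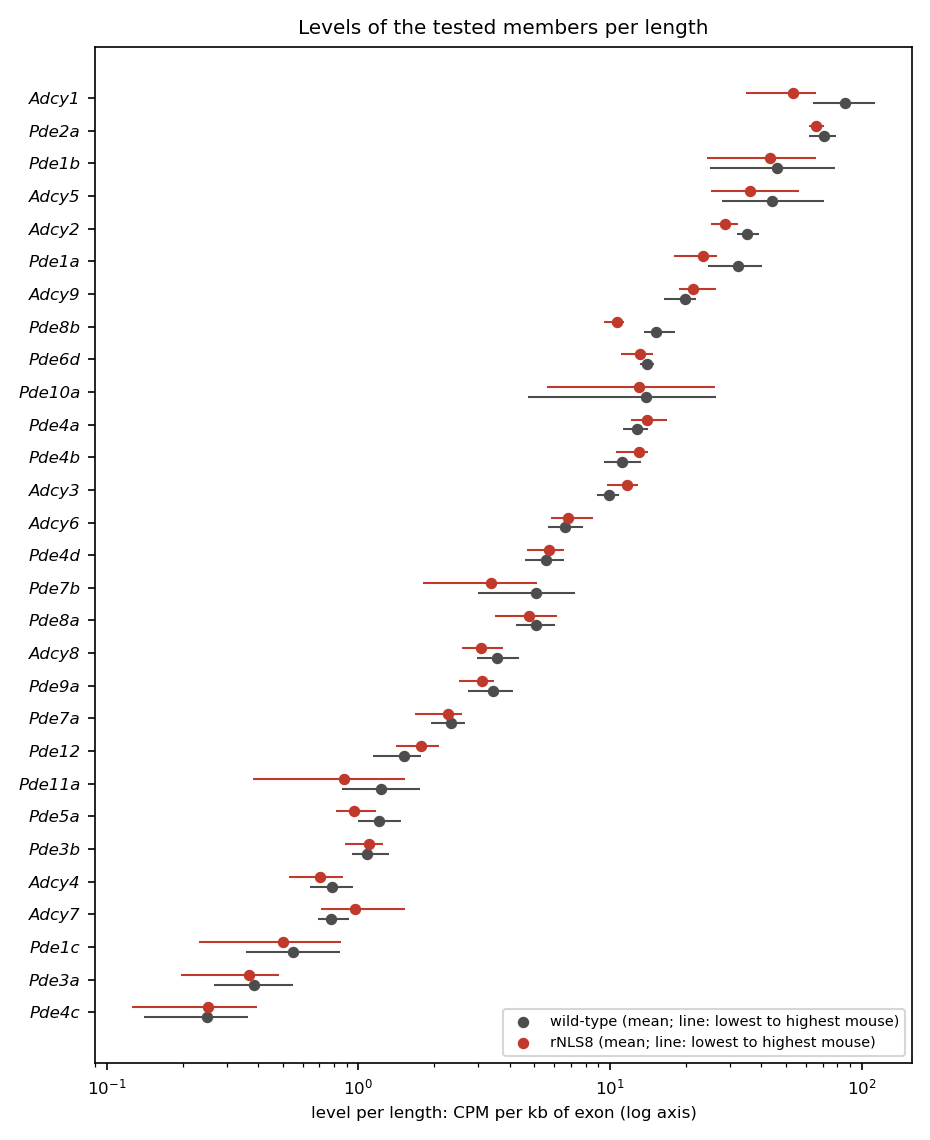
Level per length of the 29 tested members, as CPM per kilobase of exon on a log axis, with the mean of WT (grey) and rNLS8 (red) mice as points and the lowest to highest mouse as lines. Members run from Adcy1 at 86.1 in WT mice at the top to Pde4c at 0.251 at the bottom, and the lines of Pde8b do not overlap.

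Several members varied among mice of 1 genotype with the summed level of the striatum markers (8 genes, with Drd1, Drd2, Adora2a and Ppp1r1b among them), which hold no member. Log2 normalized counts and log2 marker sums were correlated over the 11 WT and the 10 rNLS8 mice, and permutation p-values were adjusted over the 18240 tested genes other than the markers. Pearson's r passed the threshold for 4 of 29 members in WT mice, against 0.636% of all genes, and for 3 of 29 in rNLS8 mice, against 0.203% of all genes. The members were Adcy5, Pde1b and Pde7b in both genotypes and Pde10a in WT mice. For Pde1b, r was 0.98 in WT (adjusted permutation p = 0.00793) and 0.99 in rNLS8 mice (adjusted permutation p = 0.0228). Its rank correlation rho was 0.95 in both, with adjusted permutation p = 0.0405 in WT and 0.119 in rNLS8 mice. For Adcy5, r was 0.94 in WT (adjusted permutation p = 0.00793) and 0.92 in rNLS8 mice (adjusted permutation p = 0.0182), and rho was 0.96 and 0.98 (adjusted permutation p = 0.0281 and 0.0730). Both members thus passed by rank in WT mice. In rNLS8 mice the rho of Adcy5 already had the smallest permutation p possible, 1.00e-05 before adjustment. With these permutations no member could therefore pass by rank in rNLS8 mice, and the outcome shows no difference between the genotypes. For Pde7b, r was 0.94 in WT (adjusted permutation p = 0.0111) and 0.95 in rNLS8 mice (adjusted permutation p = 0.0317), and rho was 0.92 in both (adjusted permutation p = 0.0633 and 0.171). For Pde10a, r was 0.96 in WT (adjusted permutation p = 0.00793) and 0.89 in rNLS8 mice (adjusted permutation p = 0.125), and rho was 0.90 and 0.89 (adjusted permutation p = 0.0912 and 0.197). These last members did not pass by rank in WT mice, and could not pass by rank in rNLS8 mice. Unadjusted, 1.00e-05 was the smallest p the permutations could give. Without the 2 mice farthest from the median of the marker sum, r of these 4 members was 0.85 to 0.96 in WT and 0.85 to 0.98 in rNLS8 mice. Within batch B it was 0.92 to 0.99 and 0.84 to 0.97, and batch A had too few mice.

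The next values of r in WT mice did not pass the threshold. They were 0.85 for Pde1c (rho 0.79, adjusted permutation p = 0.0886 for r and 0.252 for rho), 0.83 for Pde9a (rho 0.69, adjusted permutation p = 0.119 and 0.416), -0.80 for Adcy1 (rho -0.74, adjusted permutation p = 0.169 and 0.343) and -0.76 for Pde5a (rho -0.67, adjusted permutation p = 0.225 and 0.443). In rNLS8 mice r was 0.65, 0.77, -0.26 and -0.41. Whether r differed between the genotypes was not tested.

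**Figure D4:**
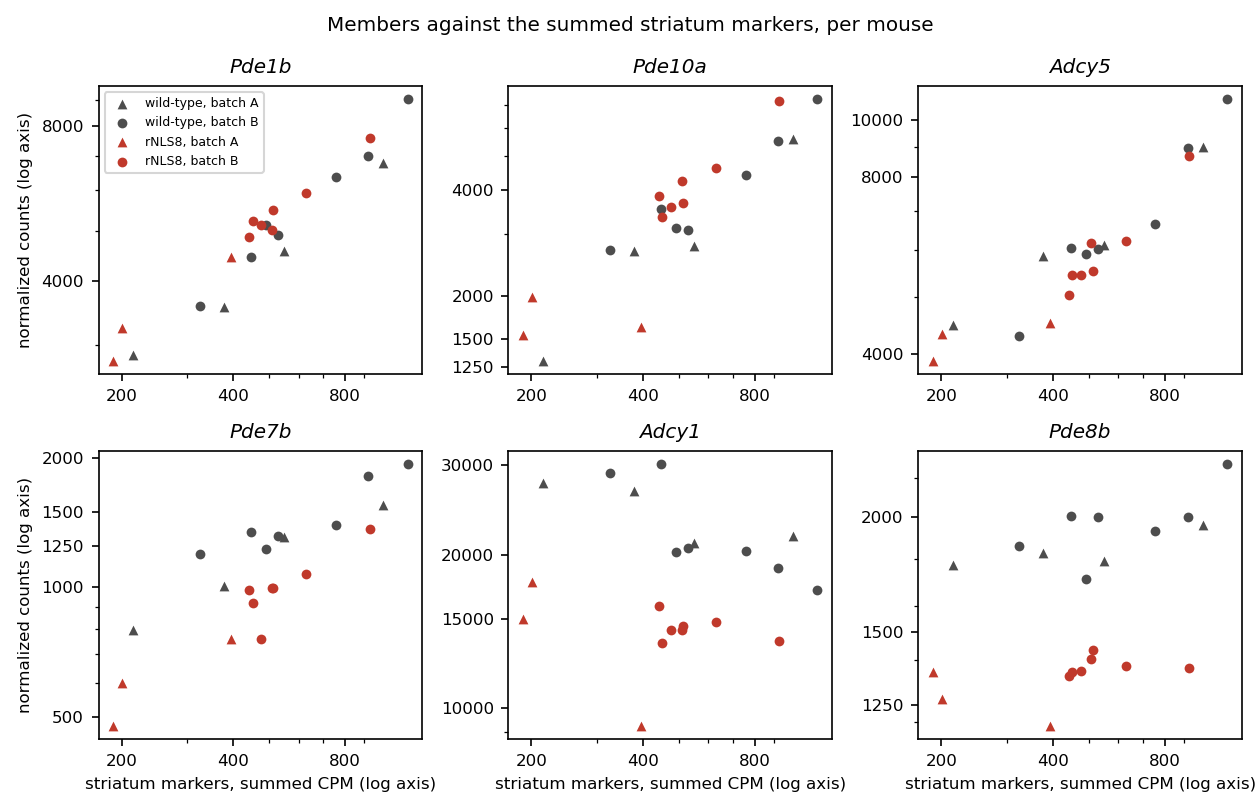
Normalized counts of 6 members against the summed CPM of 8 striatum markers in each mouse, both on log axes, for WT (grey) and rNLS8 (red) mice of batch A (triangles) and batch B (circles). Pde1b, Pde10a, Adcy5 and Pde7b rise along 1 band (r 0.89 to 0.99 within a genotype), Pde7b with the rNLS8 mice below the WT mice, whereas Pde8b separates the genotypes at every marker level.

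Of the 8 striatum markers, 2 were lower in rNLS8 mice, with Drd1 at a log2 fold change of -0.66 among them, and 0 were higher by edgeR. With the log2 marker sum as an added covariate, 5 members were higher and 8 were lower, where 43.7% of all genes were called. Adcy1 was then at -0.78 (adjusted p = 1.57e-07 by edgeR), Pde8b at -0.49 (adjusted p = 1.82e-09) and Pde7b at -0.47 (adjusted p = 3.12e-07). Pde1b turned from -0.14 to 0.14 and passed the threshold (adjusted p = 0.0103 by edgeR). The other striatal members moved toward or past zero, with -0.08 for Adcy5 and 0.16 for Pde10a, and neither passed the threshold. Pde9a was no longer past it, at -0.10 (adjusted p = 0.136 by edgeR).

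**Figure D5:**
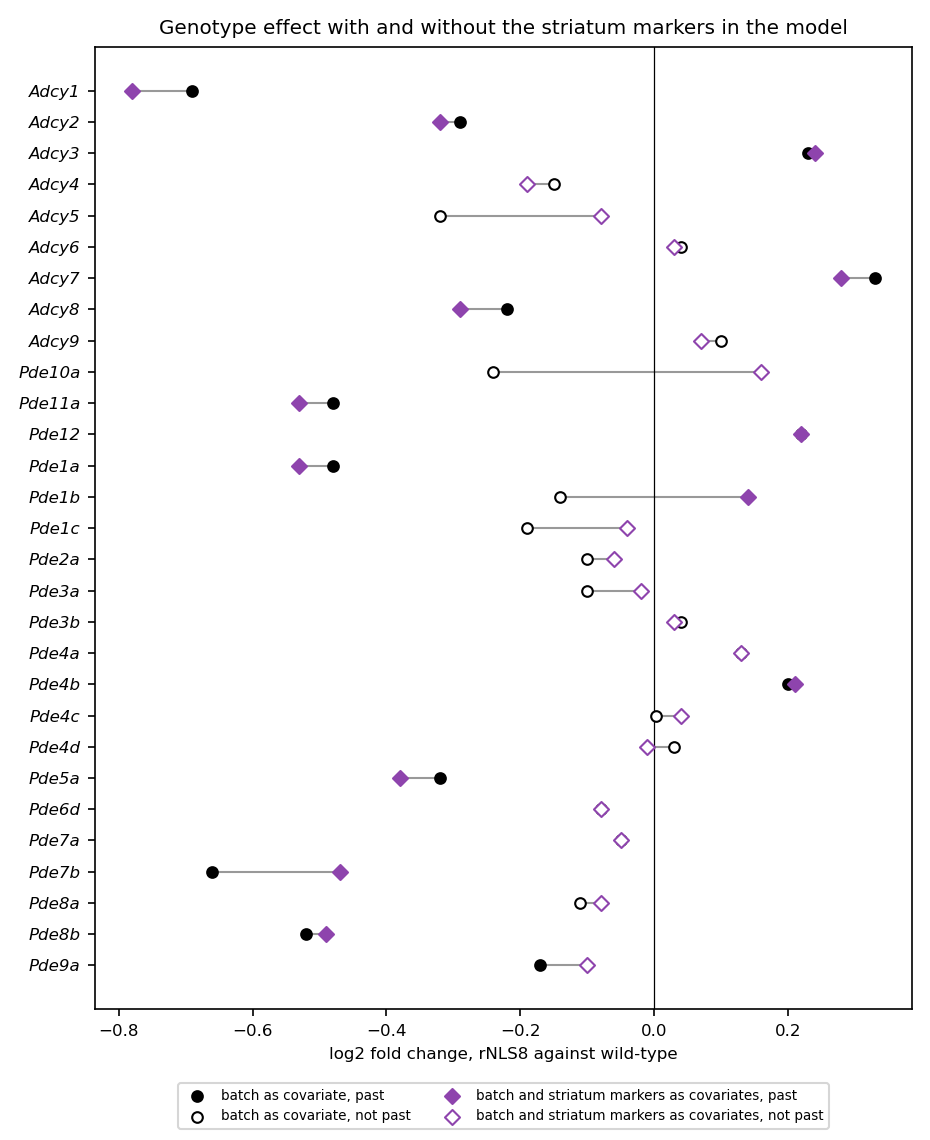
Log2 fold change of the 29 tested members in rNLS8 against WT mice with batch as covariate (circles) and with the striatum marker sum as a further covariate (diamonds), filled where the adjusted p was under 0.05. Pde1b and Pde10a cross zero to 0.14 and 0.16, and Adcy5 moves from -0.32 to -0.08, whereas Pde8b moves from -0.52 to -0.49.

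The median genomic span was 123 kb over the 29 tested members, 226 kb for the 9 lower members, 69.1 kb for the 4 higher, 106 kb for the 16 that did not pass, and 21.8 kb over the 16149 genes with an annotated span. Across the 29 members the log2 fold change and the span had a Spearman rho of -0.42, against -0.13 across all genes, and for exonic length rho was -0.05 in both. These correlations are across genes, which are not independent replicates.

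Other genes of the pathway were counted on a list of 65 partners, of which 59 were tested, 9 were higher and 22 were lower. This was 52.5% called, against 44.7% of all genes, with 15.3% higher against 23.0% and 37.3% lower against 21.7%. With library size in place of TMM, 14 partners were higher and 20 were lower, where 32.0% and 15.1% of all genes were. Of the 6 protein kinase A subunits, the main cAMP effector, Prkar1b, Prkar2b, Prkacb and Prkar1a fell and Prkaca rose. Prkar1b, a neuronal regulatory subunit, had 17911 ± 1362 normalized counts in WT and 11411 ± 1376 in rNLS8 mice (SD; log2 fold change -0.65, adjusted p = 1.05e-08 by edgeR). Akap5, which anchors the kinase and Adcy8 at synapses, had 2354 ± 442 in WT and 1359 ± 342 in rNLS8 mice (SD; log2 fold change -0.84, adjusted p = 8.98e-09 by edgeR). Of the inhibitory G protein subunits on the list, Gnai1 (-0.77, adjusted p = 3.63e-10), Gnao1 (-0.20, adjusted p = 2.77e-05) and Gnaz (-0.11, adjusted p = 0.0325) fell, and Gnai2, which is broadly expressed (0.42, adjusted p = 9.38e-08), and Gnai3 (0.24, adjusted p = 9.92e-04) rose, all by edgeR on the log2 scale.

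On the cGMP side, 4 of the 8 tested guanylyl cyclases fell, where 21.7% of all genes were lower, and Npr2, a natriuretic peptide receptor, rose, where 23.0% of all genes were higher. The soluble guanylyl cyclase subunits Gucy1a1 and Gucy1b1, which bind nitric oxide, had log2 fold changes of -0.48 and -0.61. The soluble subunit Gucy1a2 did not pass the test at 0.02 (adjusted p = 0.898 by edgeR). Gucy2g, with 226 ± 37.5 normalized counts in WT and 112 ± 23.2 in rNLS8 mice (SD), had -1.02 (adjusted p = 3.66e-08 by edgeR). The nitric oxide synthases on the list, Nos1 and Nos3, did not pass the test. Hcn3, known as the HCN channel that responds little to cAMP, rose from 268 ± 36.2 to 580 ± 77.5 normalized counts (SD; log2 fold change 1.11, adjusted p = 1.09e-10 by edgeR), with no overlap between the genotypes. Hcn2 and Hcn4, which cAMP regulates, did not pass the test at 0.06 and -0.12. Crtc1, a CREB coactivator, rose by 0.38 on the log2 scale (adjusted p = 1.82e-07 by edgeR). Popdc2, a cAMP-binding Popeye protein, was at 1.22 (adjusted p = 4.37e-04 by edgeR) on few counts, with 6.44 ± 3.69 in WT and 15.1 ± 5.92 in rNLS8 mice (SD).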

How the data were processed

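RNA of mouse neocortex (brain cortex in the methods) was sequenced as paired-end reads. The authors aligned the reads to the mouse genome, and the deposited values are whole read counts for each gene symbol, not normalized. The counting program and its use of strand are not given in the sources used here. Of the 48474 rows of the table, 13329 had no count and 2553 were further copies of a symbol.

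edgeR 4.0.16 in R 4.3.3 was used on these counts. Genes were kept by edgeR's expression filter at its defaults (minimum count 10, minimum total 15), scaled by TMM and tested by quasi-likelihood for genotype beside batch, and p-values were adjusted by Benjamini-Hochberg over 18248 genes. A normalized count is a count over its effective library size, times the mean of these sizes. Correlations used the log2 of normalized counts plus 1 and of summed CPM, and their p-values came from 100000 permutations, adjusted over all tested genes but the markers, or from exact enumeration within a batch (SciPy 1.17.1). CPM used the same effective sizes. Tests were two-sided. Depth was 20700912 to 22263809 counts per mouse, and floors of 3 counts cover counting error only, since no molecular identifiers were used. Gene positions and spans came from RefSeq, exonic lengths and exon overlaps from GENCODE M21, and promoters from RefSeq GRCm38.p6. The labels do not give the litter of a mouse, although the rNLS8 mice of the study came from a few litters. The tests hold no term for litter. Their p-values measure the spread between mice and treat littermates as independent.

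By rule, every tested member was named, with full values for those past the threshold or whose call changed under an alternative, as were the 4 partners past the threshold with the largest change in each direction. The members and lists were chosen with earlier results of these data known. Alternatives were DESeq2 1.42.0 (batch in or out of the model), edgeR with genotype only, library size in place of TMM, upper-quartile scaling, no filter, a minimum of 10 counts in each mouse, a single batch, a covariate (Xist or the striatum markers) and leaving out each mouse in turn. Leaving out the further copies was chosen after seeing the data. The procedure was tested on simulated data. No library was left out of the reported tests. Values of some marker and pathway genes are not reported here.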

Additional observations from a re-analysis of the deposited data

Results flagged for a closer look

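In 5 of the 29 tested members, 1 rNLS8 mouse lay far from the other 9, judged by its gap to the nearest mouse as a share of the range of the group, with 0.466 as the critical value for 10 mice. Chance gives about 1 in 20 groups, which would be 1.5 of 29. This was 17.2% of the members, against 13.4% of all genes tested, and each group pooled both batches without adjustment. For Adcy1 rNLS8 mouse 9 was the lowest, at 9240 normalized counts with a share of 0.494. For Pde7a the same mouse was the lowest, with a share of 0.527. For Adcy3 rNLS8 mouse 8 was the lowest, at 1296 normalized counts with a share of 0.507, and for Adcy7 it was the highest, at 220 normalized counts with a share of 0.499. For Adcy5 rNLS8 mouse 1 was the highest, at 8677 normalized counts with a share of 0.510, and it also had the highest summed striatum markers of the rNLS8 mice at 932 CPM. The WT group of 11 mice was not searched.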

How the results depend on the processing

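Of the 13 called members, 10 stayed past the threshold in the same direction in all 10 alternatives on both batches and in all 21 fits without 1 mouse, the exceptions being Adcy8, Pde11a and Pde9a. Scaling by library size only shifted the median of all genes by 0.08 on the log2 scale, took Adcy8 (-0.15), Pde11a (-0.40) and Pde9a (-0.09) below the threshold and brought Adcy9 (0.18) and Pde4a (0.21) past it. Batch A alone gave 0 members higher and 5 lower, 4 partners higher and 9 lower, and library size only gave 14 partners higher. The fits without 1 mouse gave 4 to 5 members higher and 8 to 10 lower, 7 to 12 partners higher and 21 to 24 lower, and 0 to 0 members that differed between batches. The direction turned only in members that had not passed the test, namely Pde10a (0.03 in batch B, 0.16 with the striatum covariate), Pde1b (0.14 with that covariate), Pde3b (-0.04 in batch A), Pde4c (-0.20 in batch B, -3.6e-04 by DESeq2 without batch, -0.10 to 0.08 without 1 mouse), Pde4d (-0.01 with the covariate, -0.02 to 0.05 without 1 mouse) and Pde7a (0.03 with library size only, 2.5e-04 in batch A). The cause was not tested. No paired analysis was possible because the labels give the mice no replicate numbers shared between the genotypes. Batch A has 3 rNLS8 mice, and low members such as Pde4c and Adcy10 are limited by their counts.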
